A study of Arabidopsis thaliana with 40 samples.

Results

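Glutathione transferases (GSTs) join the tripeptide glutathione to reactive molecules such as herbicides, lipid peroxides and plant defence metabolites, and the conjugates are then moved into the vacuole. In plants most of them belong to the tau class (GSTU) and the phi class (GSTF). Many tau and phi genes are switched on by oxidants, salicylic acid or foreign chemicals, partly through TGA transcription factors, which makes them common markers of detoxification in Arabidopsis. The members described here are 9 loci, the tau genes GSTU19 (AT1G78380), GSTU20 (AT1G78370), GSTU24 (AT1G17170), GSTU25 (AT1G17180) and GSTU5 (AT2G29450) and the phi genes GSTF2 (AT4G02520), GSTF6 (AT1G02930), GSTF7 (AT1G02920) and GSTF8 (AT2G47730). The measurement is H3K9/14ac, the acetylation of lysines 9 and 14 on histone H3, which marks active genes. It was read by chromatin immunoprecipitation and sequencing (ChIP-seq) over 13362 regions that are the same in every deposited table. A region belonged to a member when it overlapped the gene, or, where none did, when it lay within 1 kb of it. By this rule 5 of the 9 loci had a region, and the members are 6 of the 13362 regions.

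The plants were 7-day-old whole Col-0 seedlings from liquid culture in short days. They received water, 250 µM S-nitrosoglutathione (GSNO, a nitric oxide donor), 250 µM glutathione (GSH, which lacks the nitroso group of GSNO), 250 µM GSNO with 500 µM of the nitric oxide scavenger cPTIO, or 5 µM trichostatin A (TSA, a histone deacetylase inhibitor), for 3 h or 16 h. No allele or transgene is given for any group. Each treatment and time had 2 ChIP libraries, and the 7 deposited tables compare each treatment with water at 3 h, and all but TSA at 16 h. A whole seedling mixes many cell types, so fewer cells carrying the mark and less of the mark per cell cannot be told apart. Of the 4 shoot marker genes examined, RBCS1A and TMM had a region while SPCH and STM had none, and of the 4 root markers SHR and SCR had one while RHD6 and COBL9 had none.

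Reads of 17 single libraries were recovered from the deposited group means. They held from 1590342 reads in regions (water, 16 h) to 4053207 (GSNO, 3 h). Raw reads are these recovered counts before scaling. The series also has input libraries, and whether input reads had been subtracted from the counts was not tested. Scaled reads are these reads brought to a common depth by trimmed-mean (TMM) factors, and a region is called where its false discovery rate (FDR) or adjusted p is under 0.05. The deposited means were likewise scaled to similar library totals within the regions. Levels and folds are therefore relative to the other regions, and a change shared by most regions would not show. Library a of a group is the shallower one, and water at 16 h has a single library. The 16 h comparisons with water therefore rest on that library, the shallowest of the 17. The peak lists, deposited for each of the 20 ChIP libraries, held 6031 to 14758 peaks, apart from replicate 2 of water at 16 h with 1200 and replicate 2 of TSA at 16 h with 385. Neither of those short lists had a peak at any of the 9 loci. Whether the recovered water library of 16 h is replicate 1 or 2 was not tested.

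The tau gene GSTU19, an abundant GST of Arabidopsis, had a region at chr1:29486901-29487869 that lies wholly within the gene. The region of GSTU24, whose product conjugates the explosive trinitrotoluene and which is strongly induced by foreign chemicals, lies at chr1:5869749-5870417, also wholly within the gene. GSTU5, known as an auxin-inducible tau gene, had its region at chr2:12624836-12625640 within the gene. The phi gene GSTF8, a widely used reporter of oxidative stress, had 2 regions, at chr2:19556535-19557204 (region 1, which also overlaps AT2G47720) and at chr2:19558204-19559347 (region 2). GSTF7, a pathogen-induced phi gene, had no region of its own, and the nearest lies 416 bases away at chr1:657543-658162, in the neighbouring gene LPA1. That region is called the GSTF7 neighbour, because its reads may belong to LPA1 alone.

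No region was linked to GSTU20, GSTU25, GSTF2 or GSTF6. GSTU20 lies beside GSTU19 and GSTU25 beside GSTU24, so in both tandem pairs 1 gene had a region and its neighbour had none. GSTF6, which conjugates glutathione to the indole precursor of the defence compound camalexin, is nearly identical to GSTF7. GSTF2, a membrane-associated phi protein that binds auxins and camalexin, is nearly identical to GSTF3. Because the sources used here do not say how reads that map to several places were handled, a missing region at such a copy is uncertain. A region overlapped 4 of the 9 members (44.4%), 14 of 44 other GST genes (31.8%) and 13369 of 27444 nuclear protein-coding genes (48.7%).

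**Figure D1:**
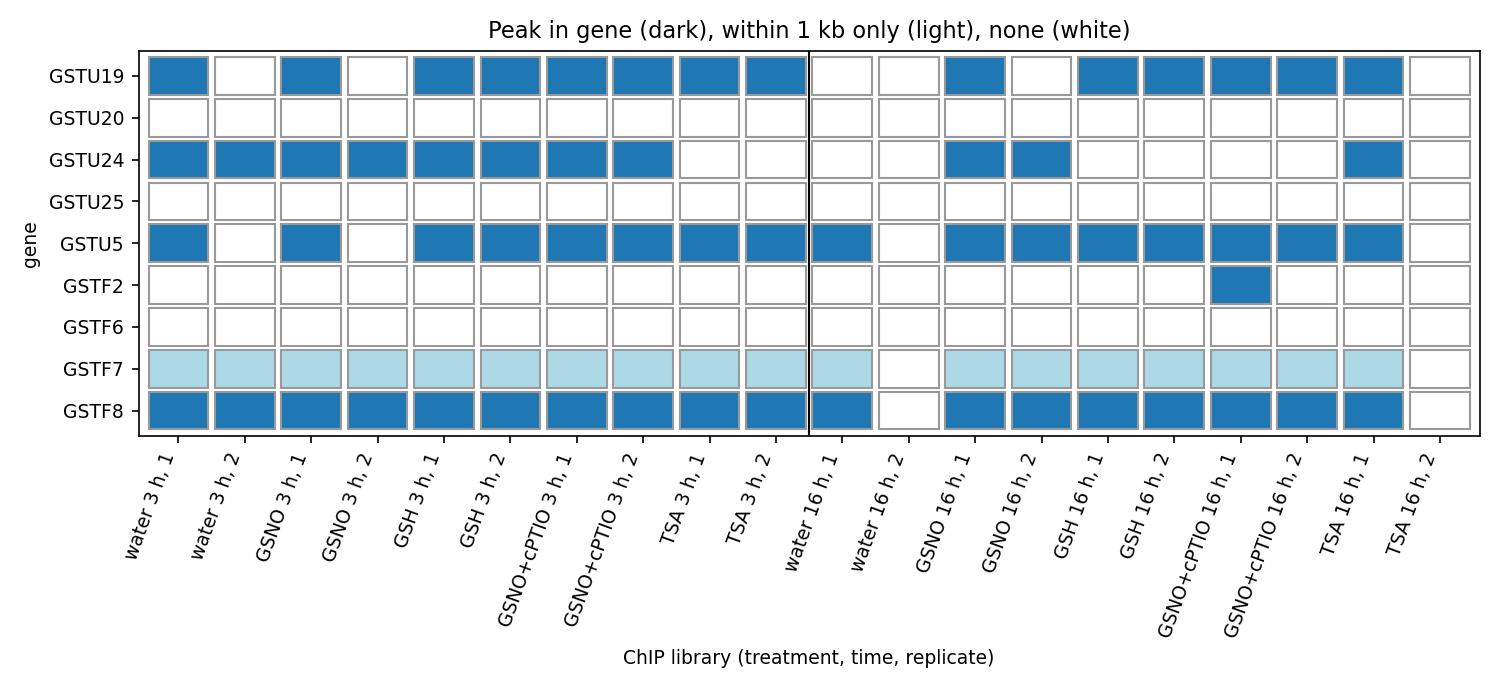
Peaks at the 9 member loci in each of the 20 ChIP libraries (columns: treatment, time and replicate; the black line separates 3 h from 16 h). Dark squares are a peak that overlaps the gene, light squares a peak within 1 kb only, white squares none. GSTF8 has a peak in 18 libraries, GSTU24 in 11, and GSTU20, GSTU25 and GSTF6 in 0.

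The peak lists showed a like split between marked and unmarked genes. They come from the same libraries as the regions, so they are not an independent check of it. GSTF8 carried a peak in 18 of 20 libraries, all but the 2 short lists. GSTU5 carried a peak in 16 libraries and GSTU19 in 14. GSTU5 lacked a peak in replicate 2 of water and of GSNO at 3 h, whose lists are among the shorter ones with 9136 and 7885 peaks, besides the 2 short lists. GSTU19 lacked one in the same 4 lists, in replicate 1 of water at 16 h and in replicate 2 of GSNO at 16 h. GSTF2 had a peak in 1 library, replicate 1 of GSNO with cPTIO at 16 h. GSTU20, GSTU25, GSTF6 and GSTF7 had a peak in 0 libraries, although a peak lay within 1 kb of GSTF7 in 18. Among the other GST genes GSTU7 had a peak in 17 libraries, GSTF9, GSTT2 and GSTZ1 in 16 each, GSTU13, GSTU18 and DHAR1 in 15 each, and GSTF10 in 14. Many of the others had a peak in 0 libraries.

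The peaks of GSTU24 split by treatment and time. At 3 h it had a peak in all 8 lists of water, GSNO, GSH and GSNO with cPTIO, and in neither TSA list. At 16 h it had a peak in both GSNO lists and in replicate 1 of TSA, and in no list of water, GSH or GSNO with cPTIO. The lists differ in length. Those of water held 6838 and 1200 peaks and those of GSNO with cPTIO 10701 and 6031, against 13484 and 8572 with GSNO and 13803 and 13436 with GSH. The patterns at GSTU24 were picked out after the lists had been seen, and they carry no test. A peak in all 8 of the other 3 h lists and in neither TSA list was found at 142 of the 13362 regions. A peak in both GSNO lists of 16 h and in none of the 5 lists of water replicate 1, GSH and GSNO with cPTIO was found at 9 regions. GSTU24 was the 1 region that met both descriptions. Both were written from its own peaks, so it had to meet them, and they leave out the TSA lists of 16 h. The count does not show that GSTU24 is unusual. A peak is a call against a threshold, so the reads beneath it are given next.

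At 3 h the GSTU24 region held 129.3 and 144.3 scaled reads in the water libraries, 146.9 and 136.2 with GSNO, and 124.8 and 137.4 with GSH. It held 153.9 and 174.9 with GSNO and cPTIO, and 110.4 and 113.6 with TSA. Both TSA libraries were below all 8 others, the lowest of which was at 124.8. The authors' deposited table of TSA gave a log2 fold of −0.30 with an FDR of 0.372.

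At 16 h the GSTU24 region held 88.2 scaled reads in the single water library, 181.6 and 153.7 with GSNO, 52.93 and 94.95 with GSH, and 156.6 and 84.3 with GSNO and cPTIO. The GSNO libraries were above water and above both GSH libraries, whereas 1 library with cPTIO reached the GSNO values and the other lay at the level of water. Neither list with cPTIO had a peak there, although the library at 156.6 was above the GSNO library at 153.7. With GSNO the mean was the highest of the 9 groups, 167.6 ± 19.7 (SD, n = 2), and with GSH the lowest, 73.9 ± 29.7 (SD, n = 2). On the scale of reads per kb, these means stood at 250.6 and 110.5, which are percentiles 58.9 and 1.52 of all regions in their own groups. The highest group was 2.27 times the lowest, against a median of 1.66 over all regions (85.2th percentile). Neither end was separate from the next group. GSNO with cPTIO at 3 h had a mean of 164.4, and the water library of 16 h lay between the GSH libraries.

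The authors' deposited table of GSNO against water at 16 h gave GSTU24 a log2 mean of 7.12 against 6.19, a log2 fold of 0.93, p = 0.0112 and an FDR of 0.387, so the region was not called. For GSH at 16 h the authors' deposited table gave −0.25 (FDR 0.878), and for GSNO with cPTIO 0.45 (FDR 1.00). All 3 comparisons share the water library.

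**Figure D2:**
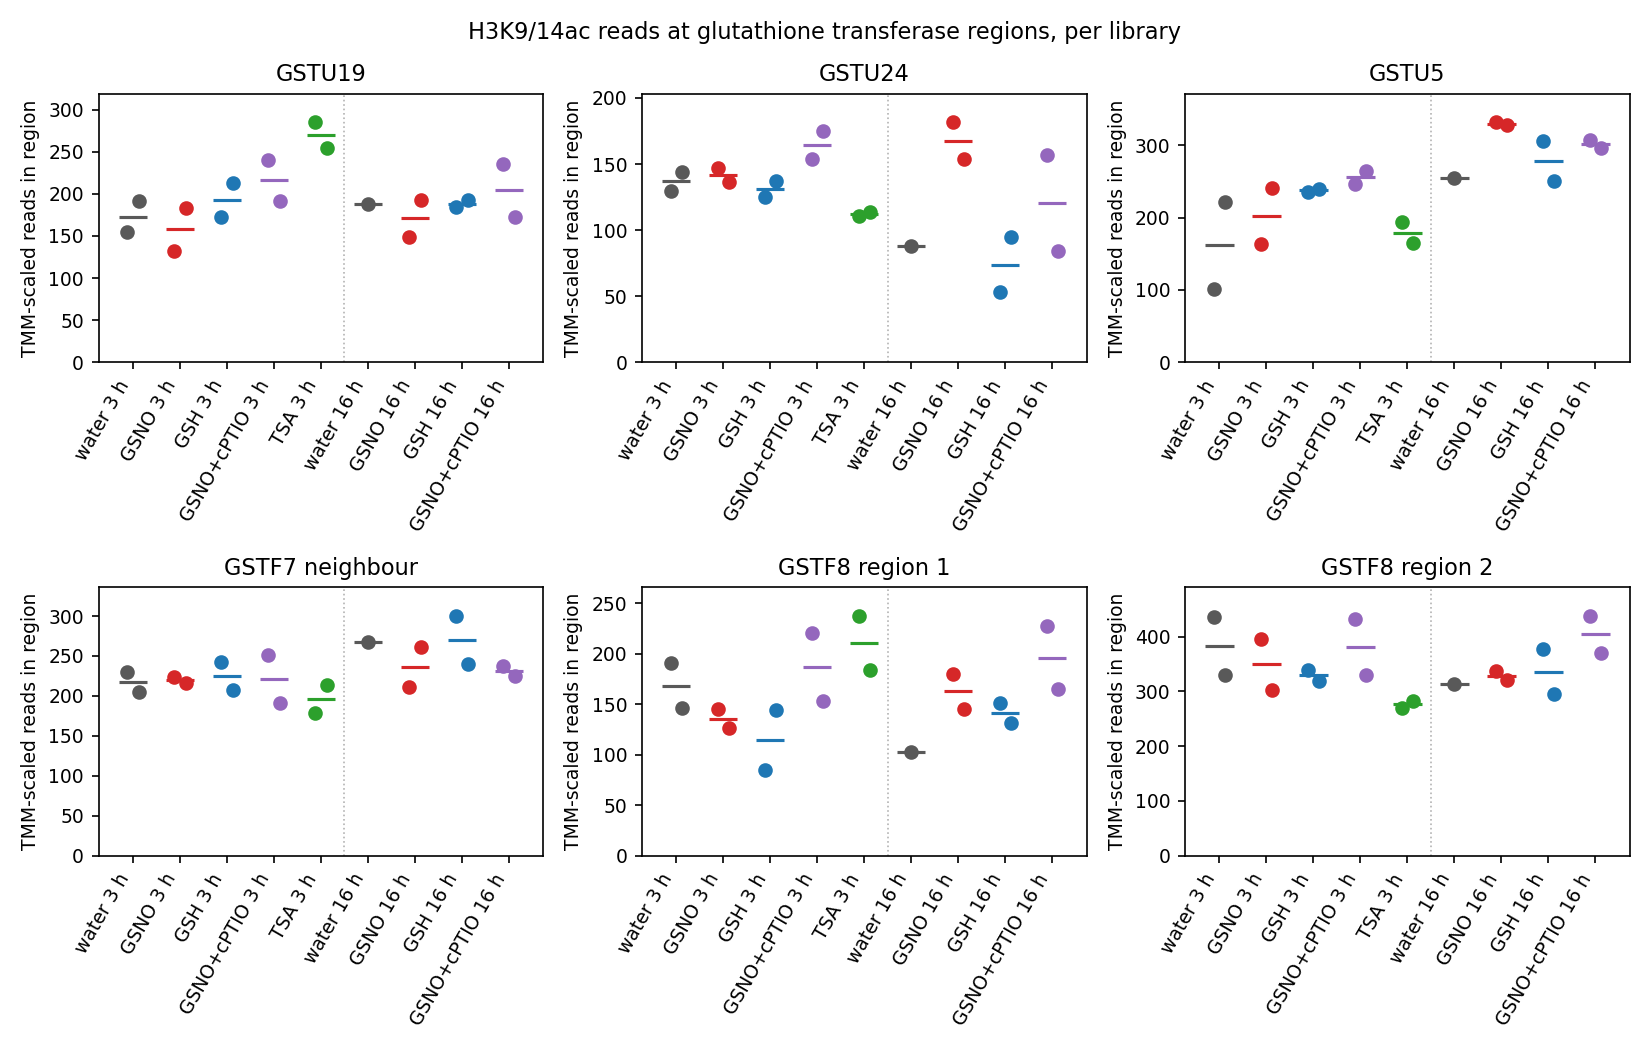
Scaled H3K9/14ac reads (linear axis from 0) in each recovered library at the 6 member regions, by treatment and time; points are libraries, horizontal bars group means, and water at 16 h has 1 library. By group mean GSTU24 is highest with GSNO at 16 h (181.6 and 153.7), where it overlaps GSNO with cPTIO at 3 h. Its lowest mean is with GSH at 16 h (52.93 and 94.95), which overlaps water of 16 h. GSTU19 is highest with TSA (285.1 and 254.8).

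GSNO and GSH were given at the same dose and for the same times and differ in the nitroso group, so their libraries were compared directly. The same was done for GSNO with and without cPTIO, which made 24 comparisons over the 6 regions. All limma differences are on the log2(scaled reads + 1) scale, first group minus second, with Benjamini-Hochberg adjustment over 13362 regions. At GSTU24 GSNO exceeded GSH by 1.22 ± 0.31 (SE) at 16 h, with a 95% interval of 0.58 to 1.87 and an unadjusted p of 0.000702. This was the 3rd smallest p of all regions, and the limma adjusted p was 1.00. Leaving out 1 of the 4 libraries moved it between 0.81 and 1.64 and called it in no case. The 2 GSH libraries differed from each other by 0.83 on the log2 scale, more than at 98.0% of regions. At 3 h the difference at GSTU24 was 0.11 ± 0.31 (SE), with an interval of −0.54 to 0.76.

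Between GSNO and GSNO with cPTIO, GSTU24 differed by −0.21 at 3 h (95% interval −0.86 to 0.44) and by 0.54 at 16 h (−0.11 to 1.18), with limma adjusted p-values of 1.00 and 0.595. The difference at 16 h was 0.98 without library a of GSNO with cPTIO and 0.093 without its library b. GSTU19 was lower with GSNO than with GSNO and cPTIO at 3 h by a log2 difference of −0.46 (95% interval −0.91 to −0.02, limma adjusted p = 1.00). Its other 3 direct differences lay between −0.30 and −0.15. For the remaining regions the direct differences between treatments lay between −0.44 (GSTF8 region 1, GSNO against GSNO with cPTIO, 3 h) and 0.29 (GSTF8 region 1, GSNO against GSH, 3 h).

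No member was called in these 24 comparisons. Over all 13362 regions limma called 0 between GSNO and GSH at either time, 0 between GSNO and GSNO with cPTIO at 3 h, and 3 (0.0225%) at 16 h. At an unadjusted p under 0.05 there were 229 and 337 regions for GSNO against GSH at 3 h and 16 h, and 616 and 1298 for GSNO against GSNO with cPTIO. If nothing differed, a share of 0.05 of the 13362 regions would fall under that p. The counts 229, 337 and 616 are below that share, and 1298 is above it. A missed threshold does not show that these compounds act alike at a gene, and the intervals above give the differences that these libraries leave possible.

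**Figure D3:**
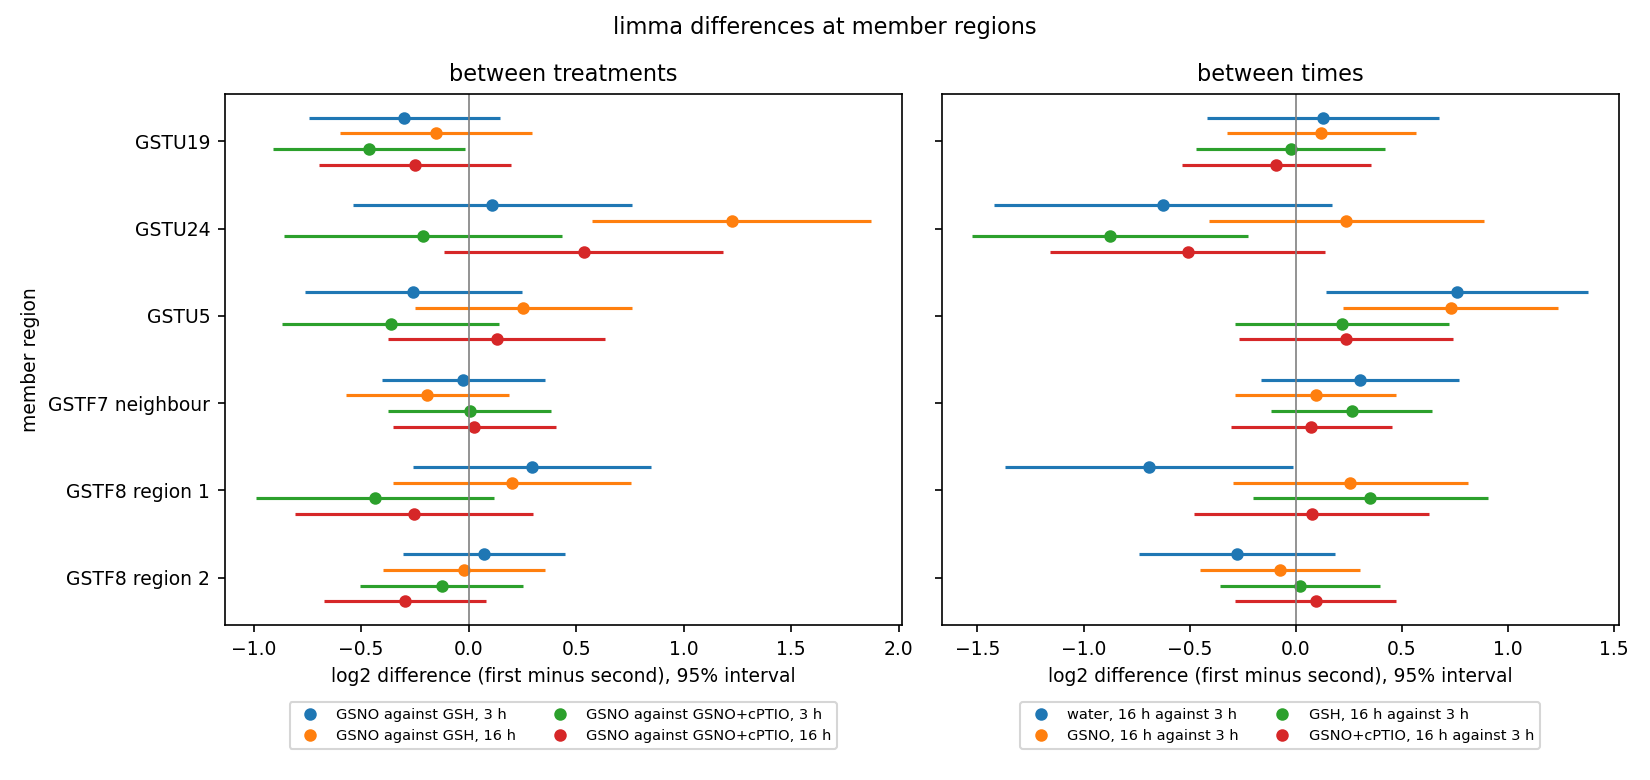
Log2 differences with 95% intervals from limma at the 6 member regions (left: GSNO against GSH and against GSNO with cPTIO; right: 16 h against 3 h within a treatment). GSTU24 stands at 1.22 for GSNO against GSH at 16 h, and GSTU5 at 0.73 and 0.76 for 16 h against 3 h with GSNO and water; no difference shown passed the adjusted threshold.

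GSTU19 was the member that changed with TSA. Its region held 285.1 and 254.8 scaled reads with TSA, against 154.6 and 191.1 in water of 3 h. Both TSA libraries were above both water libraries and above every other library at GSTU19. The authors' deposited table gave a log2 mean of 7.96 with TSA and 7.33 in water, a log2 fold of 0.64, p = 0.00517 and an FDR of 0.0297. The limma difference on the recovered reads was 0.65 ± 0.22 (SE), with an adjusted p of 0.0448, and limma called 15.3% of all regions. Leaving out any 1 of the 4 libraries kept the direction, at 0.49 to 0.80, and ended the call, with limma adjusted p-values of 0.0511 to 0.294.

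That made 1 of 6 member regions higher with TSA and 0 lower. Of all regions 20.8% were called with TSA in the authors' deposited table, 10.7% higher and 10.1% lower, and the median fold of the 6 members was −0.01 beside 0.00 over all regions. Because libraries were scaled to similar totals, higher and lower with TSA are relative to the other regions. A rise of the mark over most regions was not measured. A single called region among 6 is near that background. Of the marker regions, TMM of the shoot list was called higher with TSA in the authors' deposited table (0.73, FDR 0.0103) and the root markers were not. RBCS1A, the other shoot marker with a region, was not called, and the median fold of the 2 shoot regions was 0.21. It held 214 and 184 raw reads with TSA against 199 and 345 in water, in libraries of unequal depth, so the shoot markers did not rise alike. The summed scaled reads of the 2 shoot marker regions were 540.8 and 590.1 with TSA against 482.1 and 478.2 in water, and those of the 2 root marker regions 628.7 and 678.3 against 725.3 and 596.0. Their part in the GSTU19 result was not tested.

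At the other times and treatments GSTU19 stayed between 131.9 and 240.8 scaled reads. It held 131.9 and 183.7 with GSNO at 3 h, 172.8 and 212.7 with GSH, and 240.8 and 191.7 with GSNO and cPTIO. At 16 h it held 188.0 in water, 148.8 and 192.8 with GSNO, 184.4 and 192.7 with GSH, and 235.7 and 172.5 with GSNO and cPTIO. Apart from TSA, each group in the order of mean levels overlapped the next, so no order between neighbouring groups can be read at GSTU19. Groups further apart could be separate, as GSNO with cPTIO at 3 h (191.7 and above) was from GSNO at 3 h (183.7 and below). The authors' deposited tables gave GSTU19 log2 folds over water between −0.14 (GSNO, 16 h) and 0.32 (GSNO with cPTIO, 3 h) in the 6 tables other than TSA.

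GSTU5 differed most between its own water libraries. At 3 h it held 101.2 and 222.3 scaled reads in water, a difference of −1.13 on the log2 scale, larger than at 97.5% of regions. It held 163.4 and 241.4 with GSNO, 236.1 and 239.0 with GSH, 246.5 and 265.0 with GSNO and cPTIO, and 193.8 and 164.3 with TSA. The TSA libraries and 1 GSNO library lay between the water libraries, while GSH and GSNO with cPTIO lay above both. The authors' deposited tables of 3 h gave GSTU5 log2 folds of 0.32 with GSNO, 0.55 with GSH, 0.66 with GSNO and cPTIO, and 0.14 with TSA, with FDRs of 0.827 to 1.00.

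At 16 h GSTU5 held 254.6 scaled reads in water, 331.9 and 328.0 with GSNO, 305.7 and 250.1 with GSH, and 306.8 and 295.8 with GSNO and cPTIO. All 7 libraries of 16 h were at 250.1 or above, and the highest of 3 h was at 265.0. With GSNO at 16 h the mean of 329.9 ± 2.76 (SD, n = 2) was the highest of the 9 groups and did not overlap the next. On the scale of reads per kb, GSTU5 stood there at the 89.7th percentile of all regions.

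From 3 h to 16 h GSTU5 differed by 0.73 ± 0.24 (SE) with GSNO (limma adjusted p = 0.205) and by 0.76 ± 0.30 (SE) in water (limma adjusted p = 0.231). With GSH the difference was 0.22 and with GSNO and cPTIO 0.24. With only the GSNO groups in the fit, the GSNO difference passed the threshold (0.73, limma adjusted p = 0.0261). Without water library b of 3 h, GSTU5 passed the limma threshold against water with GSH (1.22, adjusted p = 0.0115), with GSNO and cPTIO (1.33, adjusted p = 0.00555) and with TSA (0.81, adjusted p = 0.0223), and for water at 16 h against 3 h (1.32, adjusted p = 0.00832). Without library a instead, the same differences were 0.095 with GSH, 0.20 with GSNO and cPTIO, −0.32 with TSA and 0.19 for water between times, with limma adjusted p-values of 0.448 to 1.00. The calls rest on library a of water alone, where GSTU5 had 72 raw reads against 285 in library b.

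Across time no member region was called. Over all regions limma called 118 (0.883%) for 16 h against 3 h with GSNO, 66 (0.494%) with GSH, 459 (3.44%) with GSNO and cPTIO, and 250 (1.87%) in water. GSTU24 differed by −0.88 ± 0.31 (SE) with GSH (limma adjusted p = 0.383), by −0.63 in water, by −0.51 with GSNO and cPTIO, and by 0.24 with GSNO. GSTF8 region 1 differed by −0.69 ± 0.33 (SE) in water (limma adjusted p = 0.355).

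**Figure D4:**
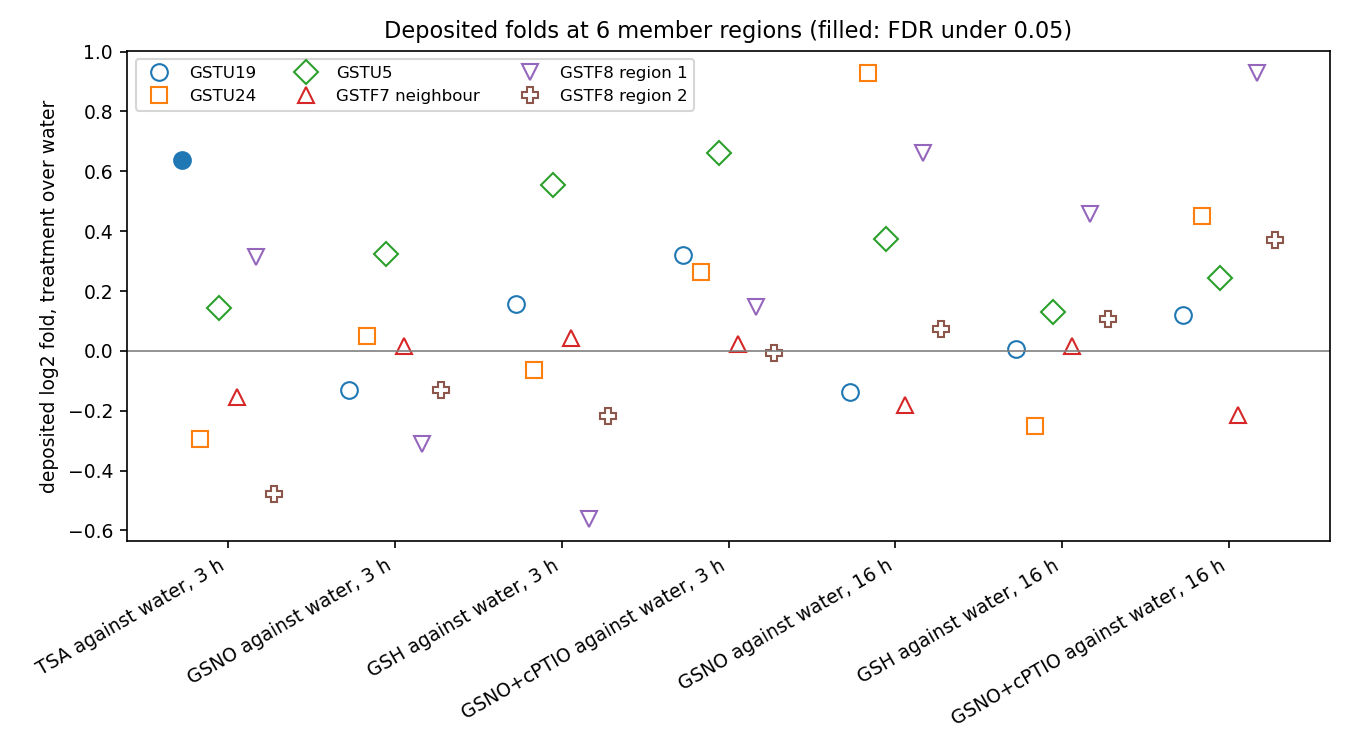
Log2 folds over water from the authors' deposited tables at the 6 member regions in 7 comparisons; a filled symbol has an FDR under 0.05. GSTU19 with TSA (0.64) is the filled one; the open symbols at 0.93 are GSTU24 with GSNO and GSTF8 region 1 with GSNO and cPTIO, both at 16 h.

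The GSTF8 regions had TSA folds of opposite sign, neither of them called. Region 1 held 237.7 and 184.2 scaled reads with TSA against 191.2 and 145.9 in water of 3 h, ranges that overlap. Region 2 held 270.4 and 282.4 with TSA against 435.7 and 330.0 in water. Both TSA libraries of region 2 were below every other library at that region. The authors' deposited table gave a log2 fold of 0.32 for region 1 (FDR 0.358) and of −0.48 for region 2 (p = 0.0382, FDR 0.124). The difference between the folds of both regions was not tested.

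GSTF8 region 1 was lowest in the water library of 16 h among the group means, at 103.2 scaled reads. At 3 h it held 145.4 and 126.1 with GSNO, 84.5 and 144.0 with GSH, and 220.9 and 152.8 with GSNO and cPTIO. At 16 h it held 180.1 and 145.8 with GSNO, 151.5 and 131.1 with GSH, and 227.8 and 164.7 with GSNO and cPTIO. All 6 treated libraries of 16 h were above the water library of that time. The authors' deposited tables of 16 h gave region 1 log2 folds of 0.66 with GSNO (FDR 0.809), 0.46 with GSH (FDR 0.608) and 0.93 with GSNO and cPTIO (p = 0.0348, FDR 0.750). In the table of GSH at 3 h the authors' deposited fold of region 1 was −0.56 (p = 0.0535, FDR 1.00). The response to GSNO was higher at 16 h than at 3 h by 0.95 ± 0.42 (SE) on the log2 scale, with a limma adjusted p of 0.831, and that to GSH by 1.04 ± 0.42 (SE), with a limma adjusted p of 0.931. Both differences use the single water library, and over all regions limma called 0.12% for either.

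GSTF8 region 2 had the highest mean of scaled reads among the members in 8 of the 9 groups, and with GSNO at 16 h its 328.6 stood beside 329.9 at GSTU5. These means are not divided by width, and region 2 is the widest member region, at 1144 bases. Per kb, region 2 was below the GSTF7 neighbour in all 9 groups. It held 395.7 and 302.8 with GSNO at 3 h, 339.8 and 319.5 with GSH, and 431.8 and 330.7 with GSNO and cPTIO. At 16 h it held 312.8 in water, 336.4 and 320.9 with GSNO, 376.9 and 295.5 with GSH, and 438.1 and 371.0 with GSNO and cPTIO. The highest group mean was 1.46 times the lowest (27.0th percentile of regions), TSA being the lowest. In the 6 other comparisons the authors' deposited log2 folds lay between −0.22 and 0.37.

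The GSTF7 neighbour varied least. It held 230.5 and 204.4 scaled reads in water of 3 h and 267.9 in water of 16 h, and its libraries ranged from 179.2 (TSA) to 300.3 (GSH, 16 h). The highest group mean was 1.37 times the lowest (15.4th percentile). The authors' deposited log2 folds lay between −0.21 and 0.04 over the 7 tables. On the scale of reads per kb it was the highest member region in water of 3 h, at 350.7 against 334.7 for GSTF8 region 2, 251.5 for GSTF8 region 1, 204.5 for GSTU24, 201.0 for GSTU5 and 178.4 for GSTU19.

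Nitric oxide and glutathione treatments called no member region against water, in the authors' deposited tables or by limma on all 17 libraries. Against water at 3 h these tables called 0.0449% of regions with GSNO, 0.105% with GSH and 0.0374% with GSNO and cPTIO, and at 16 h 0.935%, 2.16% and 0.561%. The member folds ranged from −0.56 to 0.66 at 3 h and from −0.25 to 0.93 at 16 h in these 6 tables. The median fold of the 6 members was −0.06 with GSNO, −0.01 with GSH and 0.21 with GSNO and cPTIO at 3 h. At 16 h it was 0.22, 0.06 and 0.31 in the same order, against the single water library. Over all regions the median was within 0.01 of 0 in each of these 6 tables. At an unadjusted p under 0.05 the deposited tables held 296, 542 and 446 regions at 3 h and 904, 1538 and 785 at 16 h, in the same order of treatments. The counts of 3 h are below a share of 0.05 of all regions, which would be reached if nothing differed. Those of 16 h are above it.

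The genes around the members in the same pathway were read from lists. Of 13 regions at other GST genes, 0 were higher and 1 was lower with TSA in the authors' deposited table, where 10.7% of all regions were higher and 10.1% lower. That one was GSTT2, a theta-class GST, with a log2 fold of −0.64 (FDR 0.0266) and 112 and 107 raw reads with TSA against 128 and 255 in water. The water libraries differ in depth, with 1867830 and 3319709 reads in regions, so their raw reads cannot be set side by side. The median fold of these 13 regions with TSA was −0.28, beside 0.00 over all regions. None of the 13 was called with GSNO, GSH or GSNO and cPTIO against water in the authors' deposited tables. By limma, GSTF9, a phi-class GST, fell by 0.75 on the log2 scale from 3 h to 16 h with GSNO and cPTIO (adjusted p = 0.0229).

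Of 8 regions at genes of glutathione supply and conjugate handling, the authors' deposited table of TSA called 2 higher and 1 lower, beside 10.7% higher and 10.1% lower over all regions. Their median fold was 0.35, beside 0.00 over all regions. ABCC3, a vacuolar pump for glutathione conjugates, had a log2 fold of 0.79 (FDR 0.0108), and GR2, the organellar glutathione reductase, one of 0.63 (FDR 0.0256). GGT1, an extracellular glutamyl transferase, had one of −0.96 (FDR 0.0449). Its region held 46 and 131 raw reads with TSA, against 120 and 270 in the water libraries of unequal depth. The TSA libraries were of like depth, with 2261175 and 2311352 reads in regions, so the GGT1 fold rests largely on TSA library a. GSH2, the second enzyme of glutathione synthesis, fell by 0.99 in water from 3 h to 16 h by limma (adjusted p = 0.0292), with 59 raw reads in the single water library of 16 h.

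Of 9 regions at genes of the xenobiotic response, 0 were called with TSA (20.8% of all regions in the authors' deposited table). At 16 h 1 was called higher with GSNO (0.935% of all regions called) and with GSH (2.16%), and 0 with GSNO and cPTIO (0.561%). TGA2 encodes a factor that binds the promoters of GST genes. The TGA2 region held 18 raw reads in the water library of 16 h, 61 and 147 with GSNO, and 94 and 169 with GSH. With GSNO and cPTIO it held 34 and 40 at 16 h and 38 and 84 at 3 h, and in water of 3 h 83 and 135. These are raw reads of libraries of unequal depth. The authors' deposited tables gave TGA2 log2 folds of 1.71 with GSNO (FDR 0.0165) and 1.78 with GSH (FDR 0.00139), which share that library.

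For each member the region outside the members with the most similar levels over the 17 libraries was sought by Pearson's r of log2 scaled reads. It was RPT5A for GSTU19 (r = 0.90), a region over AT2G34080, AT2G34110 and AT2G08650 for GSTU24 (r = 0.81), and CKL2 for GSTU5 (r = 0.89). For the GSTF7 neighbour it was AT5G47620 (r = 0.81), for GSTF8 region 1 AT4G35785 (r = 0.82) and for GSTF8 region 2 AT3G63270 (r = 0.92). Each is the highest r over all regions outside the members, the points share libraries and their depth, and they describe these libraries only. Among the members themselves r ran from −0.51 (GSTU24 and the GSTF7 neighbour) to 0.45 (GSTU19 and GSTF8 region 1), and between the regions of GSTF8 it was 0.29.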

How the data were processed

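H3K9/14ac ChIP-seq of 20 ChIP libraries was used, with groups from the sample titles. The authors deposited 7 tables with a log2 mean of normalised reads per group, a log2 fold, and a p-value and FDR per region. DiffBind and edgeR, and the builds TAIR10 and TAIR9, are named per the submitters' processing notes. The sources used here do not give the aligner, the peak caller or the treatment of multi-mapping reads. Peak lists carry positions, as the authors deposited them. Their score is 0 in every line, and 14 lines joined around a chromosome end were left out. Region coordinates are those of the authors' tables. Gene positions for linking came from a RefSeq table of TAIR10.1.

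Group means were whole reads times 1 factor per library, so reads of 17 libraries were recovered (100% whole within 1e-08). Recovered libraries carry no replicate number. The lowest recovered count in the water library of 16 h was 1, at 16 regions. Counts called reads or raw reads may therefore be counts left after input subtraction with a floor of 1, which was not tested. Reads were scaled by TMM (trims of 0.3 and 0.05), put on log2(value + 1) and fitted by limma 3.58.1 (R 4.3.3), all 17 libraries in 1 fit, two-sided, with a call at an adjusted p under 0.05. The scripts were tested on simulated data. Of simulated 2-fold changes limma recovered 76% to 82% where both groups had 2 libraries, and 59% for GSNO against water at 16 h. In that simulated comparison, with its single water library, a larger share of the calls was false. All simulated regions had the same spread between libraries (dispersion 0.0203). In the data that spread varied by region, and the water libraries of 3 h differed by 1.13 at GSTU5 beside a median of 0.24. The recovered shares therefore need not hold for the members. In the fit of all 17 libraries the single water library of 16 h takes its spread from the other groups, and the p-values measure the spread between 2 libraries per group. The deposited fold and FDR were the test against water, and limma that between treatments and times. Named were all members, list genes called in a deposited table, and the 1 most similar region per member. GSTF9 and GSH2, called by limma, and the list genes with many peaks were named after their values were seen. The comparison of responses between times, the wider link rule and the search for the GSTU24 peak pattern were chosen after seeing the data. The members and gene lists were chosen with earlier results of these data known. The alternatives were limma in place of the deposited test, an FDR under 0.1, a pseudocount of 5, median ratio scaling, a mean of at least 20 scaled reads, no trend, depth order as a block, only the groups compared, each library left out, and other link rules. Promoter and protein sequences and motifs were not used here.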

Additional observations from a re-analysis of the deposited data

How the results depend on the processing

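No paired analysis was possible because the deposited columns are group means and recovered libraries carry no replicate number. A subset of stronger peaks could not be taken, since the peak score is 0 throughout, and the lone water library of 16 h could not be left out. With limma in place of the deposited test, called regions over the whole series came to 1 each for GSNO, GSH and GSNO with cPTIO at 3 h (deposited 6, 14 and 5), and to 44 for GSNO (125) and 50 for GSH (288) at 16 h. At an FDR under 0.1 GSNO with cPTIO at 3 h had 9. GSNO against GSNO with cPTIO gave 2 calls at 3 h without the trend, and at 16 h 5 with a pseudocount of 5, 7 without the trend, 24 with depth order as a block and 0 with only the groups compared (main 3). For 16 h against 3 h, no trend, the depth block and only the groups compared gave 41, 211 and 187 calls with GSNO (118), 32, 125 and 497 with GSH (66), and 249, 724 and 141 with GSNO and cPTIO (459). The causes were not tested. Leaving out 1 library gave, for treatment against water, 594 to 1625 calls with TSA, 1 to 54 with GSNO, 1 to 51 with GSH and 1 to 44 with GSNO and cPTIO at 3 h, and 28 to 69, 25 to 25 and 78 to 300 at 16 h. It gave 0 to 61 and 0 to 48 for GSNO against GSH at 3 h and 16 h, 1 to 52 and 2 to 287 for GSNO against GSNO with cPTIO, and, for 16 h against 3 h, 22 to 273 with GSNO, 5 to 32 with GSH, 160 to 679 with GSNO and cPTIO and 118 to 230 in water. Member regions numbered 5 with an overlap of at least 200 bases and 7 with every region within 1 kb. Locus and library pairs with a peak were 60 of 180, and 78 within 1 kb. Directions of member values changed only when a library was left out, and none of these values was called in the full data. The ranges were as follows.

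For GSTU19 they were −0.38 to 0.095 (GSNO, 3 h), −0.33 to 0.036 (GSNO, 16 h), −0.027 to 0.036 (GSH, 16 h) and −0.12 to 0.32 (GSNO and cPTIO, 16 h) against water, −0.34 to 0.032 for GSNO against GSH at 16 h, and −0.12 to 0.35 with GSNO, −0.17 to 0.12 with GSH, −0.32 to 0.13 with GSNO and cPTIO and −0.024 to 0.28 in water between times. For GSTU24 they were −0.029 to 0.13 (GSNO, 3 h), −0.14 to 0.018 (GSH, 3 h), −0.72 to 0.11 (GSH, 16 h) and −0.064 to 0.82 (GSNO and cPTIO, 16 h) against water. For GSTU5 they were −0.32 to 0.81 (TSA), −0.16 to 0.97 (GSNO, 3 h) and −0.025 to 0.26 (GSH, 16 h) against water, and −0.53 to 0.023 for GSNO against GSH at 3 h. For the GSTF7 neighbour they were −0.067 to 0.11 (GSNO, 3 h), −0.069 to 0.16 (GSH, 3 h), −0.18 to 0.21 (GSNO and cPTIO, 3 h) and −0.16 to 0.17 (GSH, 16 h) against water, −0.14 to 0.088 for GSNO against GSH at 3 h, −0.19 to 0.20 and −0.13 to 0.18 for GSNO against GSNO with cPTIO at 3 h and 16 h, and −0.059 to 0.25 with GSNO and −0.12 to 0.27 with GSNO and cPTIO between times. For GSTF8 region 1 they were −0.13 to 0.40 (GSNO and cPTIO, 3 h) against water, −0.088 to 0.67 for GSNO against GSH at 3 h, and −0.031 to 0.73 with GSH and −0.19 to 0.34 with GSNO and cPTIO between times. For GSTF8 region 2 they were −0.33 to 0.069 (GSNO, 3 h), −0.20 to 0.20 (GSNO and cPTIO, 3 h) and −0.082 to 0.27 (GSH, 16 h) against water, −0.12 to 0.27 and −0.20 to 0.15 for GSNO against GSH at 3 h and 16 h, −0.32 to 0.071 for GSNO against GSNO with cPTIO at 3 h, and −0.28 to 0.12 with GSNO, −0.16 to 0.19 with GSH and −0.10 to 0.29 with GSNO and cPTIO between times.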
